A study of Mus musculus with 4 samples.

Results

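Imprinted genes are expressed mainly from the copy inherited from 1 parent, and many of them control growth, stem cell maintenance and neuronal differentiation. They lie in clusters, in which long noncoding RNAs and methylated control regions set the active copy, and several are strongly expressed in the developing brain. Described here are 10 of them in the embryonic mouse forebrain: Meg3, Rian, Mest, Peg3, Ndn, Nnat, Igf2, Plagl1, Asb4 and Peg10. They were picked by gene symbol, each matched 1 row, and they are 10 of the 43346 genes in the tables. Meg3, Rian and Asb4 are expressed from the maternal copy and the other 7 from the paternal copy. The parent of origin cannot be read from these counts, which give no allele.

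Single-cell RNA sequencing (10x Genomics) was carried out on wild-type C57BL/6 embryos at E12.5 (day of embryonic development). The cortex (CTX) and 3 ganglionic eminences, the medial (MGE), the lateral (LGE) and the caudal (CGE), gave 1 library apiece. The cortex gives rise to excitatory neurons and the ganglionic eminences, ventral swellings of the forebrain, to inhibitory neurons. Tissue was pooled over several embryos for each library, and no region had a second library. Values are counts of unique molecular identifiers (UMIs), given as CPM, the number that would be found among 1000000 UMIs, over the summed cells of a class. Each UMI stands for 1 captured transcript end, so levels are not divided by gene length. The 4 libraries held 4301 to 6953 barcodes and 31451467 to 49794765 UMIs, and 3197 to 4754 cells per library passed the filters, with median depths of 6938 to 8242 UMIs. Any pair of libraries shared 4 to 15 barcodes. The region labels matched their markers: Emx1 was at 190 CPM in CTX, Ebf1 at 397 in LGE, Nkx2-1 at 789 in MGE and Nr2f2 at 582 in CGE, each the highest of the 4 libraries.

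Progenitors were taken as high-Nes cells and young neurons as high-Dcx cells, those with ln(1 + UMIs per 10000) above 1.5 for Nes, an intermediate filament of neural stem cells, or Dcx, a microtubule protein of migrating neurons. There were 891 high-Nes cells in CTX, 513 in MGE, 584 in LGE and 164 in CGE. There were 787 high-Dcx cells in CTX, 2177 in MGE, 2050 in LGE and 2271 in CGE. The 132 cells past both gates were left out. Intervals below are exact 95% intervals and cover counting error only, so no test was made between regions. Where a count was 0, the level it allows is given as that of 3 UMIs, or of 3 cells for a share. This lies somewhat below the upper end of the exact interval. A difference between the classes was tested with edgeR over 8 sums, 1 for each class and library, with the library as a block. It was called at an adjusted p below 0.05 and a log2 fold change beyond 0.25. The test then asks whether the class difference is larger than its spread over 4 regions, which are not replicates of 1 region.

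The RefSeq promoter windows (300 bases, GRCm38.p6) gave 16 windows for 9 of the 10 genes. They were searched on both strands for TGCCGC, the core of the site that the imprint-protecting zinc finger protein ZFP57 reads when methylated. The motif was in 6 of the 16 windows and in 11.6% of all 32851 windows. Of the 6, 2 are Mest windows that start a few bases apart and hold the same pair of matches. It lay upstream of the start in Plagl1, Meg3 and a second start of Mest, and these stretches are shown because they belong to the gene called higher in progenitors, to 1 of those called higher in neurons, and to the window with 2 matches, a number reached by 1.53% of all windows. Capitals mark the motif, which reads as its reverse complement in each.
Plagl1, chr10:13090582-13090831, plus strand: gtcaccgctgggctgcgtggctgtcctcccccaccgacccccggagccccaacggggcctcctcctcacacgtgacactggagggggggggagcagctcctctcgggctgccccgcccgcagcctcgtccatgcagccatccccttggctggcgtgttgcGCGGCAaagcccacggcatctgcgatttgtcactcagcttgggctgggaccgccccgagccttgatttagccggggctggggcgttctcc
Meg3, chr12:109540746-109540995, plus strand: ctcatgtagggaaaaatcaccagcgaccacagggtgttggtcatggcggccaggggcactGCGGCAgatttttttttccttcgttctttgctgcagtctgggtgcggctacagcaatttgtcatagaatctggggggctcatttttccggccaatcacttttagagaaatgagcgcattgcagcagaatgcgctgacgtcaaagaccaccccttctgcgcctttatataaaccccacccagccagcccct
Mest, chr6:30737800-30738049, plus strand: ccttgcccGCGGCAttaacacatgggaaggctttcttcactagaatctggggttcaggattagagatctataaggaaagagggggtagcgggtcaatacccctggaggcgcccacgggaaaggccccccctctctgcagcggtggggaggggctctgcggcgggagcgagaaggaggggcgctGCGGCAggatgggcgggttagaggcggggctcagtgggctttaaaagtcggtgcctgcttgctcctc
The windows differed in CpG content. The full Plagl1 window held 26 CpG dinucleotides, against a median of 7 over all windows, while the Rian window held 0. A match here is a description of the letters and says nothing of binding in these cells.

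Of the 9 imprinted genes that passed the filter on low counts, 4 were higher in high-Dcx cells (Nnat, Meg3, Ndn and Rian), 1 was higher in high-Nes cells (Plagl1), and 4 were not called (Mest, Peg3, Asb4 and Peg10). Igf2 was too low to be tested. Over all 12369 genes tested, 27.8% were called higher in high-Dcx cells and 27.5% higher in high-Nes cells, so a call in either direction was common. The median log2 fold change was 0.20 over the 9 genes and 0.01 over all genes. Summed over the 10 genes, the share of all UMIs was 0.136% in CTX, 0.344% in MGE, 0.189% in LGE and 0.251% in CGE for high-Nes cells. In high-Dcx cells it was 0.342% in CTX, 0.653% in MGE, 0.521% in LGE and 0.916% in CGE, higher than in the high-Nes cells of the same library in all 4. Nnat and Meg3 together made up most of this sum in the high-Dcx cells of every library. Nnat alone gave 52.3% to 63.4% of it.

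**Figure D1:**
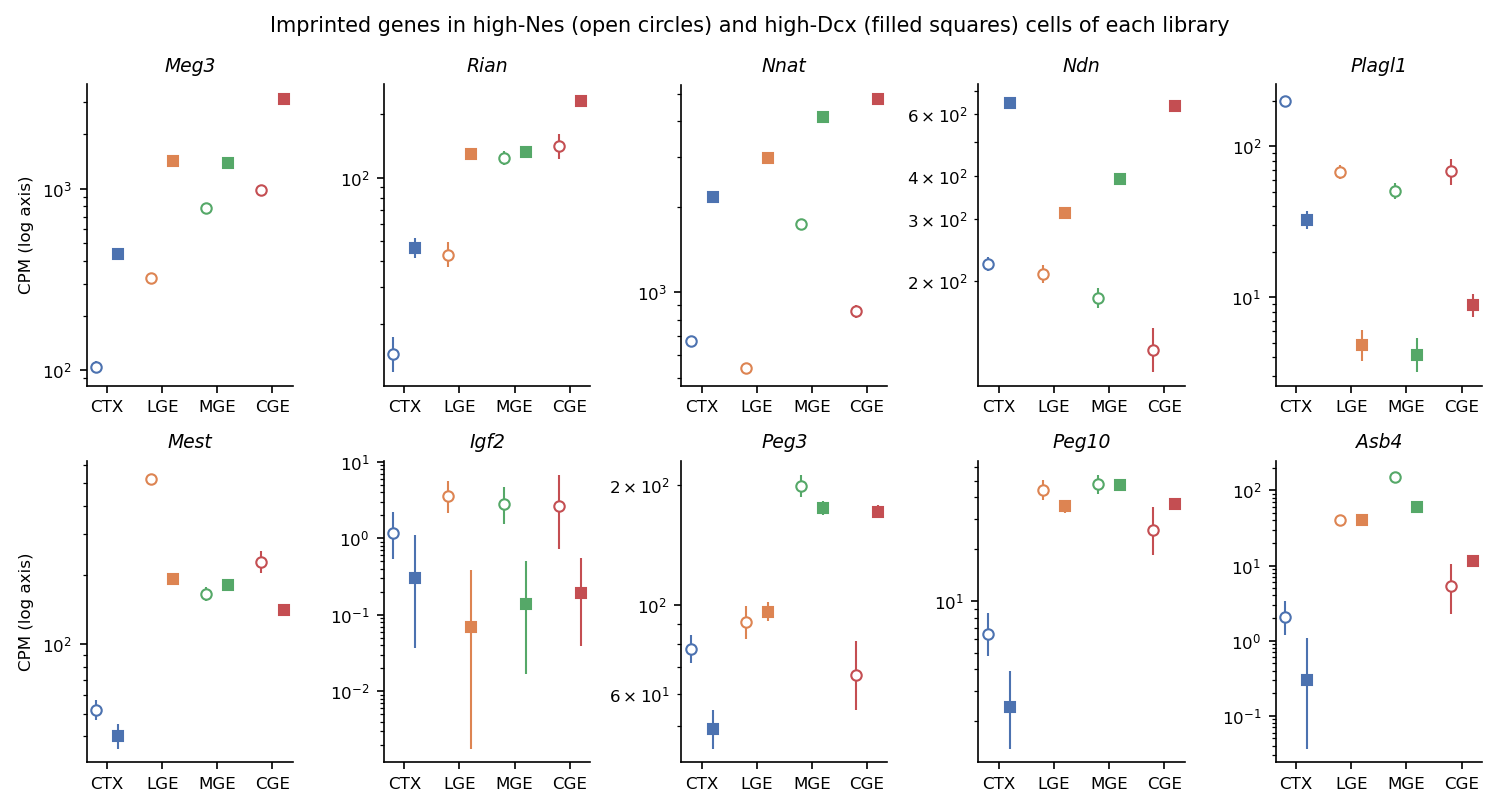
Level of each imprinted gene in CPM (log axis) in the high-Nes cells (open circles) and high-Dcx cells (filled squares) of the CTX, LGE, MGE and CGE libraries, with exact Poisson 95% intervals. Nnat, Meg3 and Ndn lie higher in high-Dcx cells in all 4 libraries, Plagl1 lies lower in all 4, and Peg3, Peg10 and Asb4 change order between libraries.

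Plagl1 (chr10:13060504-13131694, plus strand) encodes a zinc finger transcription factor that restrains proliferation and regulates other imprinted genes. In high-Nes cells it was at 199 CPM in CTX, 50.6 in MGE, 67.7 in LGE and 68.4 in CGE. In high-Dcx cells it was at 32.4 CPM in CTX, 4.17 in MGE, 4.83 in LGE and 8.83 in CGE. The classes did not overlap, since the highest high-Dcx value lay under the lowest high-Nes value. Within a library the high-Nes level was higher by 6.12-fold in CTX (interval 5.30 to 7.09), 12.1-fold in MGE (9.12 to 16.4), 14.0-fold in LGE (10.8 to 18.4) and 7.75-fold in CGE (5.95 to 10.1). The log2 fold change of high-Dcx over high-Nes cells was -3.13 (SE 0.229, edgeR adjusted p = 0.00034). CTX was the highest library in both classes. Its high-Nes level was 2.90-fold that of CGE (2.38 to 3.58), and its high-Dcx level was 3.67-fold that of CGE (2.95 to 4.58). This log2 ratio of 1.88 became 2.56 after thinning to 3000 UMIs per cell and gating anew. The new gates change which cells are counted, so such a shift mixes depth and choice of cells. Shares of cells with a UMI, and ratios between cells with and without one, keep the classes gated at full depth. The LGE and CGE levels in high-Nes cells could not be told apart (ratio 1.01, 0.803 to 1.26).

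After each cell had been thinned to 3000 UMIs, which left out 2 to 28 shallower high-Nes cells and 14 to 51 shallower high-Dcx cells per library, a Plagl1 UMI was found in 44.6% of the high-Nes cells of CTX (interval 41.3 to 48.0) and in 14.1% to 14.3% of those of the eminences. At full depth, with medians of 8417.5 to 9901 UMIs, these shares were 77.0% in CTX and 31.0% to 36.6% in the eminences. In high-Dcx cells the thinned share was 9.06% in CTX and 0.894% to 1.74% in the eminences. Microglia, which should lack these transcripts, served as background: 1 of 36 such cells, with a median depth of 14731 UMIs, held a Plagl1 UMI after thinning (2.78%, interval 0.0703 to 14.5). Of the 36, 24 came from CTX, 5 from LGE, 4 from MGE and 3 from CGE. The shares in high-Dcx cells of the eminences lay at or below this background. The interval is wide, and it also holds the high-Dcx share of CTX and the high-Nes shares of the eminences, so of all these shares the one of high-Nes cells in CTX alone lay above it. The pooled Plagl1 level of microglia was 4.09 CPM (0.495 to 14.8), which covers the high-Dcx levels of the eminences and lies below the high-Nes levels of all 4 libraries. Red cell barcodes gave another picture: among their UMIs outside the globin genes Plagl1 was at 65.2 CPM in CTX (39.8 to 101), 40.2 in MGE (13.1 to 93.9) and 121 in LGE (71.6 to 191), and at 0 UMIs in CGE, which allows up to 40.8 CPM. The LGE value lay above that of LGE progenitors, the MGE interval held that of MGE progenitors, and the CTX value lay below that of CTX progenitors. The part of free RNA in the Plagl1 levels was not tested.

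Nnat (chr2:157560078-157562522, plus strand) encodes neuronatin, a small membrane protein of developing neurons, and gave the most UMIs of the 10 genes in 7 of the 8 sums. In high-Nes cells it was at 676 CPM in CTX, 1736 in MGE, 543 in LGE and 857 in CGE. In high-Dcx cells it was at 2165 CPM in CTX, 4140 in MGE, 2974 in LGE and 4787 in CGE. Every high-Dcx value lay above every high-Nes value. The class ratio was lowest in MGE at 2.39 (interval 2.33 to 2.44), and was 3.20 in CTX, 5.47 in LGE and 5.58 in CGE. MGE had the highest Nnat level of the progenitors, 2.02-fold that of CGE (1.91 to 2.15). In red cell barcodes Nnat among the UMIs outside the globin genes was at 479 CPM in CTX, 1199 in MGE, 1141 in LGE and 1972 in CGE. The LGE and CGE values lay above those of the progenitors of the same library, and the CTX and MGE values below. Microglia had 123 CPM pooled (93.7 to 158), below every progenitor level. Most of them came from CTX, and the 4 microglia of MGE had 342 CPM (199 to 547), below the MGE progenitors. The part of free RNA in the Nnat levels was not tested. Across libraries the log2 fold change was 2.05 (SE 0.235, edgeR adjusted p = 0.00117). Nnat lies inside Blcap, a gene on the other strand, and whether reads were counted by strand is not given in the sources used here. Blcap itself rose with a log2 fold change of 1.41 (adjusted p = 0.00132). Whether the pair shares reads was not tested.

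Meg3, a long noncoding RNA and a growth suppressor, and Rian, a long noncoding RNA that hosts small nucleolar RNAs, lie 32.2 kb apart on the plus strand of chromosome 12, at chr12:109541001-109571726 and chr12:109603940-109661716 (GRCm38). Meg3 was at 105 CPM in CTX, 784 in MGE, 321 in LGE and 987 in CGE in high-Nes cells. In high-Dcx cells Meg3 was at 437 CPM in CTX, 1398 in MGE, 1422 in LGE and 3137 in CGE. The class values overlapped across libraries, because the CTX neurons lay below the MGE and CGE progenitors, yet within each library the neurons were higher, by 1.78-fold in MGE to 4.43-fold in LGE. For Meg3 the log2 fold change was 1.77 (SE 0.235, edgeR adjusted p = 0.00188). Without the block on library it was 1.63 with an adjusted p of 0.0982, which is no longer a call.

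Rian followed the same order of libraries in high-Nes cells, with fewer UMIs. In high-Nes cells it was at 14.4 CPM in CTX, 124 in MGE, 43.0 in LGE and 141 in CGE. In high-Dcx cells it was at 46.3 CPM in CTX, 132 in MGE, 130 in LGE and 231 in CGE. The class ratio was 3.22 in CTX, 3.02 in LGE and 1.63 in CGE, while in MGE it was 1.07 and its interval held 1 (0.972 to 1.17). The log2 fold change was 1.08 (SE 0.294, edgeR adjusted p = 0.0229). This call was lost without the LGE library (adjusted p = 0.0838), without the CGE library (0.0605) and without the block (0.337). Red cell barcodes had Rian at 3.26 CPM in CTX (0.0825 to 18.2), 48.3 in MGE (17.7 to 105), 80.5 in LGE (41.6 to 141) and 68.0 in CGE (22.1 to 159). The CTX, LGE and CGE intervals held the progenitor level of their library, and the MGE interval lay below it. The part of free RNA in the Rian levels was not tested.

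Both noncoding RNAs were lowest in CTX. The CGE over CTX ratio of Meg3 was 9.45 in high-Nes cells (interval 8.66 to 10.3) and 7.17 in high-Dcx cells (6.91 to 7.45). For Rian these ratios were 9.82 (7.76 to 12.47) and 4.99 (4.44 to 5.63). The Meg3 levels of LGE and MGE in high-Dcx cells could not be told apart (1.02, 0.998 to 1.04), nor could those of Rian (1.02, 0.953 to 1.08). Cells with a Meg3 UMI after thinning had more Rian per UMI than cells without one, in both classes of all 4 libraries, with ratios of 2.61 to 4.78 in high-Nes cells and 3.46 to 8.48 in high-Dcx cells. In microglia a Meg3 UMI was found in 0 of 36 cells after thinning, which allows a share of up to 8.33%, and in 22.2% of them at full depth. Their pooled level was 22.5 CPM (11.2 to 40.3), below the 105 CPM of the lowest gated sum. Most of these microglia came from CTX, where Meg3 was lowest. In red cell barcodes, a second class that should lack it, Meg3 among the UMIs outside the globin genes was at 88.0 CPM in CTX, 595 in MGE, 416 in LGE and 1183 in CGE. This is the order of libraries of high-Nes cells, and CGE and CTX are also the ends of the order in high-Dcx cells. The part of free RNA in the order of libraries was not tested.

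Ndn (chr7:62346569-62350262, plus strand) encodes necdin, a protein of the MAGE family that promotes neuronal differentiation and survival. In high-Nes cells it was at 223 CPM in CTX, 178 in MGE, 209 in LGE and 127 in CGE, and in high-Dcx cells at 647 CPM in CTX, 391 in MGE, 313 in LGE and 634 in CGE. The classes did not overlap. The ratio within a library ran from 1.50 in LGE (interval 1.40 to 1.60) to 5.00 in CGE (4.33 to 5.80). Over the 4 libraries the log2 fold change was 1.46 (SE 0.272, edgeR adjusted p = 0.00603). The order of the libraries differed from that of Meg3: CTX and CGE neurons had the highest Ndn levels, with a ratio of 1.02 (0.985 to 1.06). Their order depended on the processing. The log2 ratio of CTX over CGE was 0.03, but -0.41 after thinning to 3000 UMIs and gating anew. It was 0.33 without the upper gene limit, and both shifts were beyond counting error. Among progenitors CTX had the highest level, which could not be told apart from that of LGE (1.07, 0.988 to 1.15). Within high-Dcx cells of the eminences, those with an Ndn UMI after thinning had 2.11-fold to 2.30-fold more Meg3 per UMI than those without one. The same ratio in high-Nes cells had intervals that held 1 in MGE (0.974, 0.868 to 1.09) and LGE (0.950, 0.801 to 1.13). In CGE, with 45 such cells holding an Ndn UMI, it was 0.694 (0.552 to 0.866). Among the UMIs of red cell barcodes outside the globin genes, Ndn was at 179 CPM in CTX, 169 in MGE, 121 in LGE and 286 in CGE. The CGE interval (177 to 437) lay above the level of CGE progenitors. The CTX and MGE intervals held those of their progenitors, and the LGE interval lay below. Each value lay below the high-Dcx level of its library. The part of free RNA in the Ndn levels was not tested.

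**Figure D2:**
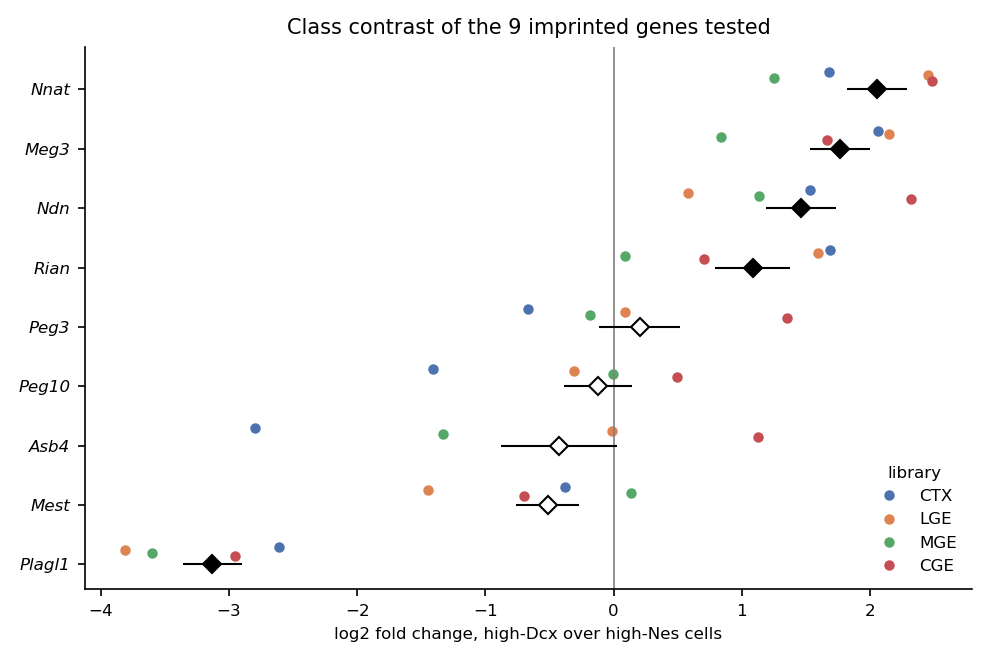
log2 fold change of high-Dcx over high-Nes cells for the 9 genes tested with edgeR (diamonds, bars show the SE, filled where called), with the CPM ratio of each library (coloured points). Nnat, Meg3, Ndn and Rian lie to the right of 0 in all 4 libraries and Plagl1 to the left in all 4, while the points of Peg3, Peg10, Asb4 and Mest fall on both sides.

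The other 4 tested genes were not called between the classes and differed widely between libraries. Mest (chr6:30723547-30748465, plus strand, overlapping Copg2 on the other strand) encodes an enzyme-like protein of the alpha/beta hydrolase fold that regulates growth. It was at 51.9 CPM in CTX, 165 in MGE, 525 in LGE and 228 in CGE in high-Nes cells. In high-Dcx cells it was at 39.8 CPM in CTX, 182 in MGE, 192 in LGE and 140 in CGE. LGE progenitors stood apart, with a level 2.31-fold that of CGE (interval 2.06 to 2.59) and 10.1-fold that of CTX (9.11 to 11.3). The log2 ratio of LGE over CGE, 1.21, fell to 0.45 without the upper limit of 4500 genes per cell and was 1.67 at a gate of 2.0. In LGE the high-Nes level was 2.73-fold the high-Dcx level (2.59 to 2.88), while in MGE the neurons were slightly higher (ratio 1.10, 1.02 to 1.19). Between the classes the log2 fold change was -0.51 (SE 0.248, edgeR adjusted p = 0.127). It passed the threshold only without the upper limit of 4500 genes per cell (-0.94, adjusted p = 0.0400). Cells with markers of blood vessels, mesenchyme, microglia or choroid plexus carried part of the CTX value: 8 such cells among the 891 high-Nes cells held 113 of the 396 Mest UMIs, and without them the level was 37.4 CPM and the ratio of neurons to progenitors 1.06 (0.896 to 1.26). In LGE the 4 such cells held 87 of 2624 UMIs, and the level without them was 513 CPM.

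Peg3 (chr7:6703892-6730431, minus strand) encodes a zinc finger protein that acts in growth and cell survival. It was at 77.8 CPM in CTX, 199 in MGE, 90.7 in LGE and 67.1 in CGE in high-Nes cells, and at 49.0 CPM in CTX, 175 in MGE, 96.5 in LGE and 171 in CGE in high-Dcx cells. MGE cells were high in both classes, while CGE cells were low as progenitors and high as neurons (ratio 2.55, interval 2.09 to 3.15). CTX went the other way (0.630, 0.549 to 0.723). The log2 fold change over the 4 libraries was 0.20 (SE 0.313, edgeR adjusted p = 0.610), and without CGE it was -0.16. Red cell barcodes had Peg3 at 52.1 CPM in CTX (29.8 to 84.7), 145 in MGE (85.8 to 229), 47.0 in LGE (18.9 to 96.8) and 109 in CGE (47.0 to 214). Each interval held the progenitor level of its library. The part of free RNA in the Peg3 levels was not tested.

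Asb4 (chr6:5383386-5433022, plus strand), a subunit of a ubiquitin ligase, was far lower in CTX than in LGE and MGE. In high-Nes cells it was at 2.10 CPM in CTX, 150 in MGE, 40.8 in LGE and 5.31 in CGE, and in high-Dcx cells at 0.302 CPM in CTX (2 UMIs), 59.8 in MGE, 40.4 in LGE and 11.6 in CGE. The MGE over CTX ratio was 71.7 in high-Nes cells (interval 43.9 to 126) and 198 in high-Dcx cells (54.7 to 1640). Within MGE the progenitors were 2.51-fold higher (2.27 to 2.77), within CGE the neurons were 2.19-fold higher (1.09 to 5.14), and within LGE the ratio was 0.990 (0.842 to 1.17). Its log2 fold change was -0.43 (SE 0.451, edgeR adjusted p = 0.452), and 0.01 without MGE. In MGE, 30.4% of thinned high-Nes cells held an Asb4 UMI (26.4 to 34.6), and 58.5% did unthinned, at a median of 9901 UMIs. Of 36 microglia 0 held one after thinning, which allows a share of up to 8.33%. Only 4 of these came from MGE and 24 from CTX, where Asb4 was near 0. The 4 held 0 Asb4 UMIs at full depth, which allows up to 60.3 CPM, so this background says little of MGE. In red cell barcodes Asb4 was at 93.9 CPM in LGE (51.4 to 158), above both LGE classes, and at 32.2 CPM in MGE (8.77 to 82.4). CTX and CGE red cell barcodes held 0 Asb4 UMIs. The part of free RNA in the Asb4 levels was not tested.

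Peg10 (chr6:4747306-4760517, plus strand), derived from a retrotransposon and needed in the placenta, lies 623 kb from Asb4. It was at 6.42 CPM in CTX, 47.7 in MGE, 44.0 in LGE and 25.9 in CGE in high-Nes cells, and at 2.41 CPM in CTX, 47.5 in MGE, 35.6 in LGE and 36.6 in CGE in high-Dcx cells. CTX was the lowest library in both classes, 4.04-fold below CGE in high-Nes cells (interval 2.58 to 6.27) and 14.7-fold below LGE in high-Dcx cells (8.99 to 26.0). The log2 fold change between the classes was -0.12 (SE 0.267, edgeR adjusted p = 0.726), and 0.11 without CTX. In high-Dcx cells of the eminences, those with an Asb4 UMI after thinning had more Peg10 per UMI than those without, by 5.05-fold in MGE (3.97 to 6.42), 2.35-fold in LGE (1.56 to 3.45) and 8.29-fold in CGE (5.66 to 11.9). In high-Nes cells the corresponding intervals held 1 in LGE, MGE and CGE. Red cell barcodes had Peg10 at 6.52 CPM in CTX (0.789 to 23.5), 56.3 in MGE (22.6 to 116), 47.0 in LGE (18.9 to 96.8) and 13.6 in CGE (0.344 to 75.8). Each interval held the progenitor level of its library. The part of free RNA in the Peg10 levels was not tested.

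Igf2 (chr7:142650766-142666816, minus strand), a fetal growth factor, was near 0 in neural cells. It gave 9 UMIs in CTX, 14 in MGE, 18 in LGE and 4 in CGE over the high-Nes cells, which is 1.18 to 3.60 CPM, and 1 to 3 UMIs per library over the high-Dcx cells. Of the 45 UMIs in high-Nes cells, 39 came from 19 cells that carried markers of blood vessels, mesenchyme, microglia or choroid plexus. Without those cells LGE and CGE progenitors held 0 UMIs, which allows up to 0.606 CPM in LGE and 2.02 CPM in CGE. Over all 16194 kept cells, 217 of 244 Igf2 UMIs (88.9%) fell in the 115 such cells, which are 0.710% of the cells. Red cell barcodes, which are not among the kept cells, held 17 Igf2 UMIs, all in LGE. The share in cells with non-neural markers was 83.0% in CTX, 93.4% in MGE, 94.6% in LGE and 92.5% in CGE.

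Among those cells the 58 with mesenchymal markers (such as Pdgfrb and Col1a1) had Igf2 at 435 CPM in CTX, 342 in MGE, 471 in LGE and 481 in CGE. The 21 with endothelial markers had 83.6 CPM pooled (interval 50.3 to 131), and the 36 with microglial markers had 0 UMIs, which allows up to 6.14 CPM. Other members were also abundant there. Meg3 was at 4952 CPM in the pooled mesenchymal cells (4756 to 5155), higher than in the high-Dcx cells of any library, and Rian at 551 CPM (487 to 621). Mest was at 1941 CPM in the pooled endothelial cells (1764 to 2131) and at 1038 CPM in mesenchymal cells (949 to 1133). Nnat, in contrast, was at 577 CPM in endothelial and 853 CPM in mesenchymal cells, below its level in high-Dcx cells of all 4 libraries. These values pool 3 to 24 cells of a type per library, so single cells weigh heavily.

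**Figure D3:**
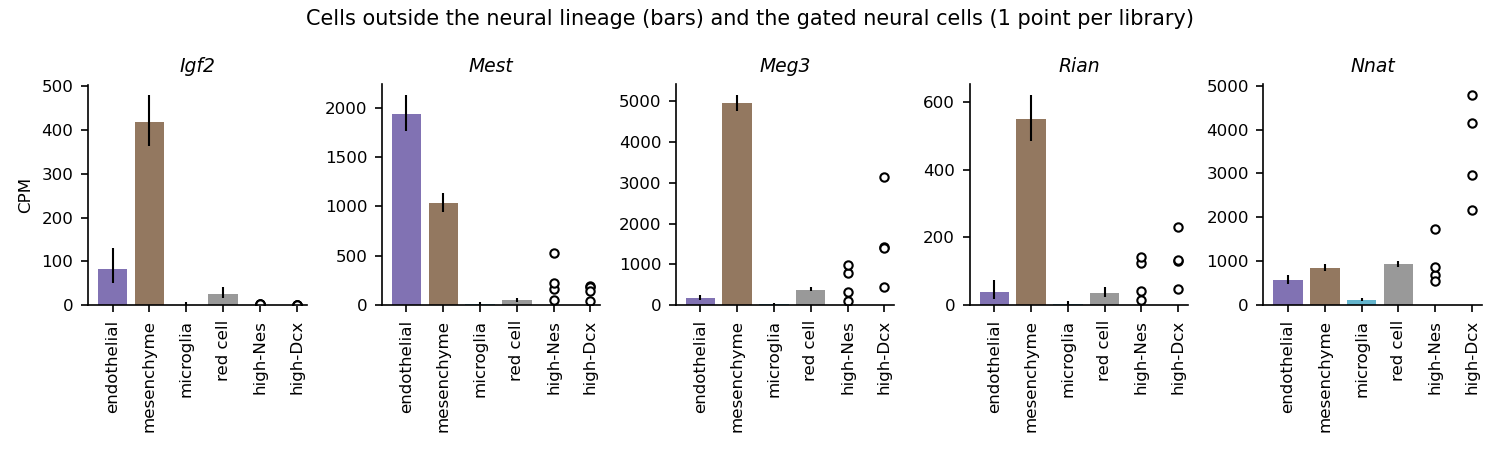
CPM of 5 imprinted genes in pooled endothelial, mesenchymal and microglial cells and in red cell barcodes (bars with exact Poisson 95% intervals, over UMIs outside the globin genes for red cells), beside the high-Nes and high-Dcx sums (1 point per library). Igf2 peaks in mesenchymal cells at 418 CPM, Mest in endothelial cells at 1941 CPM, and Nnat in high-Dcx cells.

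Summed over each list, markers of these cell types were higher in high-Nes cells, except those of choroid plexus in CTX. This bears on each comparison above. The summed level of the 6 endothelial markers was 6.64 to 62.0 CPM in high-Nes cells and 0.905 to 3.18 CPM in high-Dcx cells. The 7 mesenchymal markers summed to 19.5 to 89.0 CPM against 0.839 to 6.74 CPM, and 1 to 4 of the 7 were at 0 in the high-Dcx cells of each library. In CGE the collagen markers Col1a1, Col1a2 and Col3a1 were at 0 in high-Nes cells and above 0 in high-Dcx cells. The CGE high-Nes sum held 1505893 UMIs against 15745084 in high-Dcx cells, and 0 there allows up to 1.99 CPM. The direction of these markers cannot be told from presence alone. The 6 microglial markers summed to 1.20 to 165 CPM against 0.490 to 4.10 CPM, and the 5 choroid plexus markers to 0.262 to 50.2 CPM against 0.604 to 2.15 CPM. In high-Nes cells of LGE and MGE, 4 of these 5 (Ttr, Folr1, Kcne2 and Clic6) were at 0. Otx2 alone thus gave the 34.8 CPM in LGE and 50.2 CPM in MGE. In CTX the choroid plexus sum was lower in high-Nes cells (0.262 CPM) than in high-Dcx cells (0.604 CPM). Cells with UMIs of 3 or more genes of 1 list were removed, 19 high-Nes and 4 high-Dcx cells. The same 5 genes were then called: the log2 fold change was -3.14 for Plagl1, 2.04 for Nnat, 1.83 for Meg3, 1.45 for Ndn and 1.10 for Rian. Cells with fewer such markers stayed in. In CTX, LGE and MGE 0 cells met this rule for choroid plexus, so cells with Otx2 alone of that list were not removed as such.

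Cells of the eminences were further separated into the zones that a newborn neuron passes through. The ventricular zone (VZ) was taken as the high-Nes cells. Cycling subventricular zone (SVZ) cells had Dcx above 1.5 with Mki67 and Ccnd2 above 0.5. They also lay outside the high-Nes gate and under 0.5 for Mapt and Rbfox3, genes of maturing neurons. Mantle zone (MZ) cells had Dcx above 1.5 without the cell cycle genes Mki67, Ccnd2 and Ccnd1. They also lay under 0.5 for the progenitor genes Hes5 and Nes. The SVZ class was thus picked against maturing neurons, and the part of this choice in the zone differences was not tested. The SVZ class held 208 cells in MGE, 385 in LGE and 71 in CGE, and the MZ class 843 in MGE, 559 in LGE and 1205 in CGE. CTX had 15 SVZ cells and is left out here. Plagl1 was already low in the SVZ, at 4.63 CPM in MGE, 3.71 in LGE and 15.0 in CGE, and stayed low in the MZ at 5.44 in MGE, 4.77 in LGE and 8.02 in CGE. Nnat lay between its VZ and MZ levels in the SVZ, at 2331 CPM in MGE, 1535 in LGE and 1349 in CGE, and was highest in the MZ at 5095 in MGE, 4234 in LGE and 5793 in CGE.

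Ndn and Meg3 were not ordered by zone in this way. Ndn was lowest in the SVZ in all 3 eminences, at 114 CPM in MGE, 98.3 in LGE and 85.9 in CGE, and highest in the MZ, at 579 in MGE, 496 in LGE and 810 in CGE. Meg3 in the SVZ was at 323 CPM in LGE (interval 305 to 343), close to its VZ level of 321 CPM. Of the LGE progenitors, 4 cells with non-neural markers held 166 of the 1603 Meg3 UMIs. Without them the VZ level was 290 CPM (276 to 306). In MGE and CGE the SVZ levels of Meg3 were 355 and 520 CPM, below the VZ levels of those libraries. In the MZ Meg3 was at 2064 CPM in MGE, 2266 in LGE and 3787 in CGE. Peg10 also had a low SVZ level in LGE (16.0 CPM, interval 12.1 to 20.7) and MGE (14.4, 9.56 to 20.8), but not in CGE (39.6, 26.5 to 56.8). Mest was lowest in the SVZ in all 3 eminences, at 135 CPM in MGE, 97.8 in LGE and 50.5 in CGE. Asb4 in CGE was highest in the SVZ, at 45.0 CPM (31.0 to 63.2), against 5.31 in the VZ and 5.30 in the MZ.

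**Figure D4:**
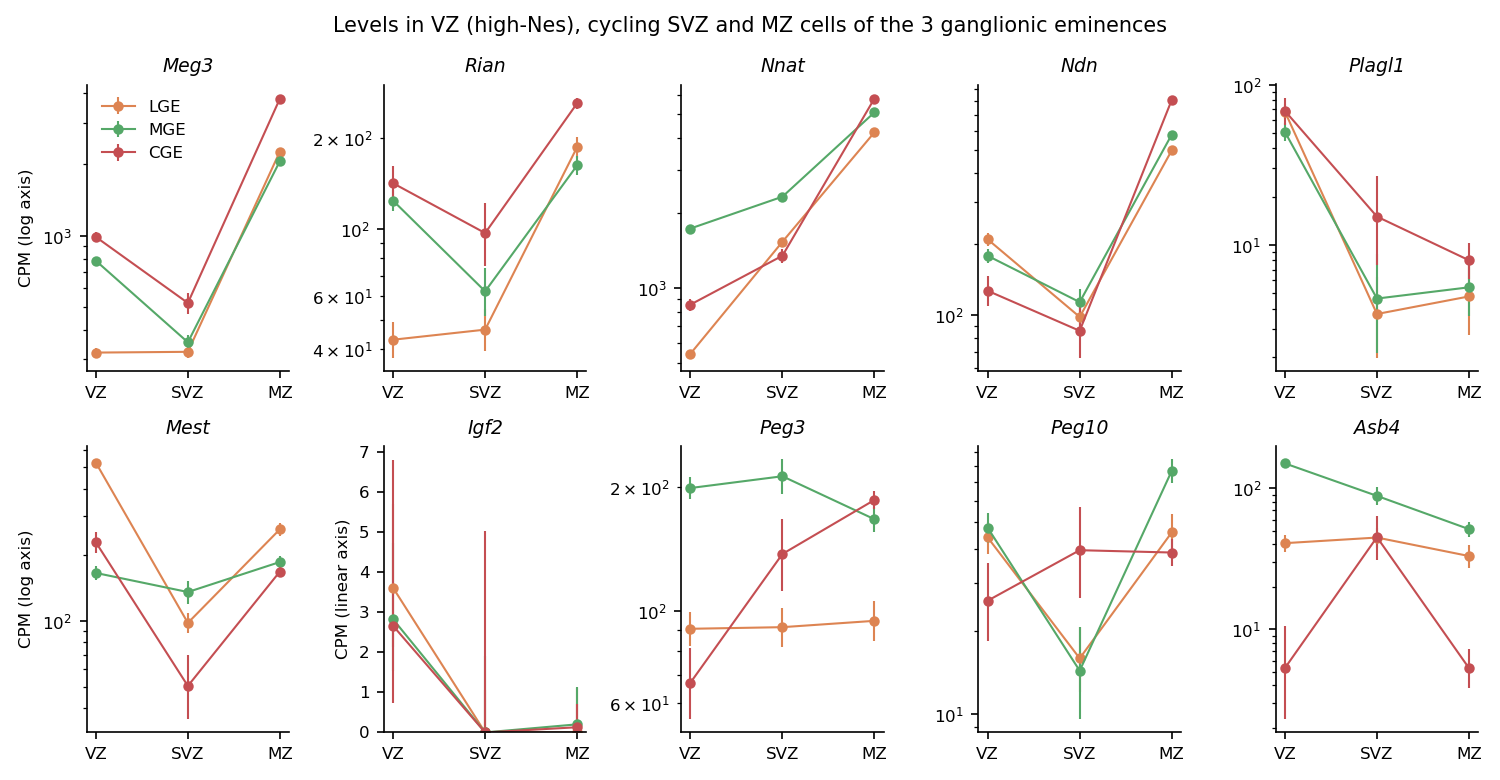
Levels of the 10 genes in CPM (log axis, linear for Igf2) in VZ, cycling SVZ and MZ cells of the 3 eminence libraries, with exact Poisson 95% intervals. Ndn dips in the SVZ in all 3 libraries before its highest level in the MZ, Nnat climbs from VZ to MZ, and Plagl1 drops between VZ and SVZ.

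Whether the class difference itself differed between CTX and the eminences was tested as an interaction in edgeR, with the lone CTX library assumed to vary like the others. By this test 0 of the 9 genes were called, against 0.873% of all 12369 genes, and 2 had an unadjusted p below 0.05. These were Peg10, whose log2 difference was -1.42 (SE 0.465, unadjusted p = 0.0236, adjusted p = 0.278), and Plagl1, with 0.84 (SE 0.337, unadjusted p = 0.0478, adjusted p = 0.370). DESeq2 called 0 of them.

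Other imprinted genes were measured for comparison. Of 46 on the list, 42 had a row and 29 symbols, with 30 rows since Snrpn has a pair, passed the filter: 15 were higher in high-Dcx cells, 4 were higher in high-Nes cells and 11 were not called. The shares over all genes tested, 27.8% and 27.5%, are the background of these counts. The median log2 fold change over these 30 was 0.50. Split by the expressed copy, members included, 9 of 22 paternally expressed rows were higher in high-Dcx cells and 3 in high-Nes cells, and of 12 maternally expressed rows these were 7 and 1, against the same 27.8% and 27.5% of all genes.

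Neighbours of the 10 genes in their clusters were among them. Mirg, a noncoding RNA downstream of Meg3 and Rian, was at 1.18 to 17.3 CPM in high-Nes cells and 4.83 to 30.7 CPM in high-Dcx cells, with a log2 fold change of 1.05 (adjusted p = 0.0379). Dlk1, the paternally expressed ligand-like protein of the same cluster, was not called (-0.42, adjusted p = 0.577), with 1.83 CPM in CTX and 159 CPM in CGE progenitors. Magel2 and Snrpn share the cluster of Ndn. Magel2 was at 0.655 to 2.00 CPM in high-Nes cells and at 8.25 to 18.5 CPM in high-Dcx cells, a log2 fold change of 3.32 (adjusted p = 0.00119). The row of Snrpn with more UMIs rose by 1.89 (adjusted p = 0.000323) and the other by 1.33 (adjusted p = 0.00223).

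Peg12, of the same cluster as Ndn, went the other way. It was at 51.6 to 94.3 CPM in high-Nes cells and 7.24 to 12.9 CPM in high-Dcx cells, with a log2 fold change of -2.79 (adjusted p = 0.000229). H19, the noncoding neighbour of Igf2, was also higher in high-Nes cells (-2.29, adjusted p = 0.000877), where its level ran from 3.80 CPM in CTX to 47.1 CPM in MGE. The part of cells with non-neural markers in the H19 level is not given here. Grb10, an adaptor that restrains growth factor signalling, was at 187 to 235 CPM in high-Nes cells and 31.8 to 90.3 CPM in high-Dcx cells (-1.70, adjusted p = 0.0017). Cdkn1c, a cyclin-dependent kinase inhibitor expressed as cells leave the cycle, was at 14.6 to 59.6 CPM in high-Nes cells and at 110 to 730 CPM in high-Dcx cells (3.09, adjusted p = 0.00328), and Inpp5f, a phosphoinositide phosphatase, rose by 1.92 (adjusted p = 0.000636). Usp29, next to Peg3, rose by 2.43 (adjusted p = 0.00383) at 5.78 CPM or less. Sgce, next to Peg10, was not called (-0.01, adjusted p = 0.974), and Rtl1, near Meg3, did not pass the filter. All adjusted p-values here are from edgeR over all genes tested.

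**Figure D5:**
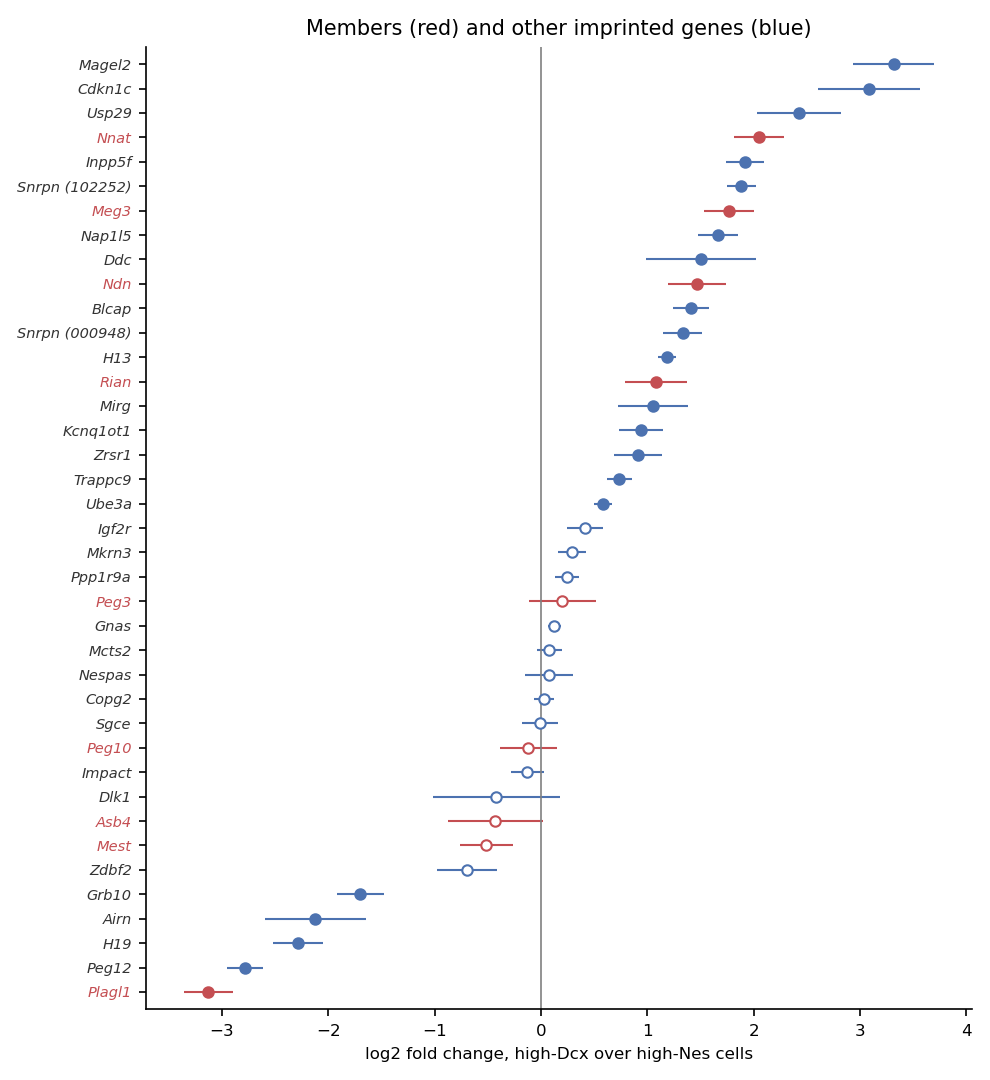
log2 fold change of high-Dcx over high-Nes cells (edgeR, bars show the SE) for the 9 members tested (red) and 30 rows of other imprinted genes (blue), filled where called. Plagl1 has the lowest value at -3.13, followed by Peg12, and Magel2 the highest at 3.32.

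Over the 8 sums, the correlation of log2(CPM + 1) between pairs of members was highest for Meg3 and Rian (Pearson r = 0.974) and next for Asb4 and Peg10 (0.892), and was lowest for Plagl1 and Nnat (-0.889). The sums share libraries and depth, so these are descriptions. Among 5177 genes at 50 CPM or more in some sum, Meg3 was most like Rnf138, Rian and Dpysl4 (r of 0.969 to 0.982), and Rian was most like Meg3, Aktip and Arnt2. Nnat was most like Trio, Fryl and Arhgef7 (0.988 to 0.989), Ndn like Gpr162, Commd7 and Fam168a (0.975 to 0.984), and Plagl1 like Rpl41, Eprs and Rexo2 (0.986 to 0.990). Mest was most like Fbxl14, Cwc15 and 2410004B18Rik, Peg3 like Tgs1, Tox2 and Nkap, Asb4 like Klhl13, Smndc1 and Tma7, Peg10 like Gpbp1, Gm5607 and Metap1d, and Igf2, at under 4 CPM, like Ccnd1, Ckb and Asrgl1.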

How the data were processed

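UMI counts were measured in 4 libraries, 1 per region. The authors deposited raw counts per gene and barcode, made with Cell Ranger on mm10 (the file headers name 3.0.2, the submitters' processing notes 3.0.0). The annotation release and strand of counting are not given in the sources used here. The labels describe cells sorted as live, while the methods of the study sort only another line, and this was not settled. Filters kept cells with a gene number over 1500 and under 4500 (limits the study states for genes in one place and for UMIs in another), under 5% mitochondrial and under 1% Hbb UMIs, and without the highest simulated doublet scores (0.8% per 1000 barcodes). Cells with 3 or more genes of a non-neural marker list were called non-neural, and barcodes with over 10% globin UMIs red cells. Sums of counts were tested with edgeR 4.0.16 (TMM, filterByExpr, quasi-likelihood, Benjamini-Hochberg over all genes), with the library as a block, since both classes come from the same library and tissue. DESeq2 1.42.0 was an alternative. Positions are from GENCODE on GRCm38. Named are all 10 members, and of the other imprinted genes the 3 with the largest changes each way at 10 CPM or more and those in the members' clusters. For each member the 3 most correlated genes at 50 CPM or more are also named. Members and lists were chosen with earlier results of these data known.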

Additional observations from a re-analysis of the deposited data

Results flagged for a closer look

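In 4 genes the class difference pointed one way in some libraries and the opposite way in another, with counting intervals that leave out 1. The high-Dcx over high-Nes ratio of Mest was 1.10 in MGE, against 0.768 in CTX, 0.366 in LGE and 0.617 in CGE, and the CTX value was 1.06 once cells with non-neural markers had been removed. For Peg3 it was 2.55 in CGE, against 0.630 in CTX and 0.879 in MGE. For Asb4 it was 2.19 in CGE, against 0.144 in CTX and 0.398 in MGE, and the CGE progenitor sum rests on 8 UMIs and the CTX neuron sum on 2. For Peg10 it was 1.41 in CGE, against 0.376 in CTX and 0.808 in LGE. CGE was the library with the higher neurons in Peg3, Asb4 and Peg10, and it had the fewest high-Nes cells (164). The difference between single libraries was not tested, since each region had 1 library. The edgeR test of CTX against the 3 eminences gave adjusted p-values of 0.880 for Mest, 0.520 for Peg3, 0.655 for Asb4 and 0.278 for Peg10.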

How the results depend on the processing

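The main count was 4 members higher in high-Dcx cells and 1 higher in high-Nes cells. With no replicate block, 2 were higher in high-Dcx cells, because Meg3 (1.63, adjusted p = 0.0982) and Rian (0.85, adjusted p = 0.337) lost their calls. The pairing comes from the design, both classes being taken from the same library. Leaving out 1 library gave 3 to 4 members higher in high-Dcx cells and 1 to 2 higher in high-Nes cells: Rian was lost without LGE (0.88, adjusted p = 0.0838) or CGE (1.19, adjusted p = 0.0605), and Igf2 entered the test without CTX. Members higher in high-Nes cells numbered 2 at a gate of 1.0, 2 without the low-count filter and 3 without the upper gene limit. In each of these Igf2 passed the filter and was called (-4.27, -3.76 and -3.63), and without the gene limit Mest was called too (-0.94, adjusted p = 0.0400). Of the 45 Igf2 UMIs behind the main high-Nes sums, 39 came from cells with non-neural markers. Gates at 2.0, thinning to 3000 UMIs with new gates, the MZ gate, removal of non-neural cells, kept doublets, kept double-gated cells and DESeq2 changed no member's call. Of the ratios between the highest library and the next, 42 values, each of a ratio under a setting, moved beyond counting error. They include ratios of Mest, Peg3, Nnat and Meg3 in high-Nes cells and of Meg3 and Nnat in high-Dcx cells. These named ratios kept their direction. Depth limits Igf2, and Asb4 in CTX and CGE, where several sums rest on 18 or fewer UMIs.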
